A study of Mus musculus with 14 samples.

Results

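The LIF receptor, JAK and STAT3 genes described here are 7 of the 52459 genes in the count tables: *Lifr* and *Il6st* (the receptor subunits), *Jak1* and *Jak2* (the kinases), *Stat3* (the transcription factor), and *Socs3* and *Socs2* (the feedback inhibitors). They were taken by gene symbol from both tables, and every m6A peak on their exons was taken from both peak lists. The study compared E14Tg2a mouse embryonic stem cells (mESCs) that carry wild-type METTL14 (WT) with mESCs of the same line in which an arginine of METTL14, the partner of METTL3 in the m6A methyltransferase, was replaced by lysine (R255K). The R255K cells were a CRISPR-Cas9 knock-in grown from a single colony, so a difference between the genotypes and a difference between this clone and the parental cells cannot be told apart. All cells were grown on gelatin in serum with LIF. For RNA decay, cells of each genotype were exposed to actinomycin D at 5 µg/ml, which blocks transcription, and RNA was sequenced at 0, 4 and 8 h, with 1 library per genotype and time. For m6A, RNA fragments were pulled down with an antibody (MeRIP-seq) from 2 IP and 2 input libraries per genotype, and the deposited peaks are 1 list per genotype. No comparison below has replicates, and no p-value is given. Intervals are 95% intervals that cover counting error only.

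LIF binds a receptor made of LIFR and gp130, the product of *Il6st*, and the JAK kinases bound to these chains phosphorylate STAT3, which enters the nucleus and switches on genes that keep mESCs undifferentiated. SOCS3 and SOCS2 belong to the family of inhibitors that JAK and STAT signalling induces and that then dampen it. In mESCs, m6A is placed mostly near stop codons and in 3′UTRs at a GAC core, and transcripts that carry it are known to decay faster than others on average.

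The 6 RNA libraries held between 13812160 and 18813640 counted reads. The 6 markers of embryonic stem cells (*Pou5f1*, *Sox2*, *Nanog*, *Zfp42*, *Esrrb* and *Dppa5a*) were counted in every library, with a summed level of 2178 to 2658 FPKM (counts scaled to the exon length of the gene and to the summed counts of the library) in WT and 1555 to 1768 FPKM in R255K cells. The 5 fibroblast markers (*Col1a1*, *Col1a2*, *Col3a1*, *Pdgfra* and *Thy1*) summed to 2.24 to 2.38 FPKM in WT and 6.31 to 7.20 FPKM in R255K cells, and *Col3a1* was at 0 counts in the WT 0 h library. The summed level of the 5 germ layer markers (*Fgf5*, *Gata4*, *Gata6*, *Sox17* and *Pax6*) was 6.69 FPKM in WT and 5.53 FPKM in R255K cells at 0 h. This sum fell with time in both genotypes, although *Fgf5* in R255K cells stayed at 0.920, 0.924 and 0.786 FPKM at 0, 4 and 8 h. *Mettl14* itself was counted 681, 376 and 232 times in WT at 0, 4 and 8 h and 299, 280 and 209 times in R255K cells, and since the mutation changes a codon and not the gene's presence, this level does not check the labels. *Gapdh* changed between 242 and 2357 counts among the 3 WT libraries. The part of these differences in the results below was not tested.

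m6A peaks lay on exons of 6 of the 7 genes in WT cells, 10 peaks in all, and 5 of the 10 had no overlapping peak in the R255K list. Among all 13870 exonic WT peaks this share was 47.9%, so the genes together were near the background. The loss was uneven among them: each of the 3 *Jak2* peaks and 2 of the 3 *Socs2* peaks were missing from the R255K list, while the single peaks of *Lifr*, *Il6st*, *Jak1* and *Socs3* and the stop codon peak of *Socs2* were present in both. No R255K peak lay on these genes outside a WT peak. The sites shown next are those with the GGAC nearest each WT summit, or the nearest of AGAC and AAAC where the peak held no GGAC. Because GGAC was taken first, the tetramers of these sites do not compare kept with lost peaks. The sites lay up to 180 bp from the summit, the distance of the lost 3′UTR site of *Socs2*. Each is 25 bases of mm10 on the strand that reads like the RNA, 5′ to 3′, with the tetramer in capitals.
*Lifr*, kept, chr15:7191270-7191294 (+), 3′UTR: tgatagccagGGACcttcactctgg
*Il6st*, kept, chr13:112504437-112504461 (+), around the stop codon: ccgcagtgaaGGACtggctcctgaa
*Jak1*, kept, chr4:101153128-101153152 (-), 3′UTR: aaaaacttgtGGACttggctgacac
*Socs3*, kept, chr11:117967201-117967225 (-), 3′UTR: agggaggtggGGACacctccaagtg
*Socs2*, kept, chr10:95412503-95412527 (-), 3′UTR: tctctcttaaGGACagttgggctca
*Socs2*, lost, chr10:95411644-95411668 (-), 3′UTR: gtctgaccacGGACatcaacagctg
*Socs2*, lost, chr10:95388289-95388313 (-), exon of other transcripts: aacagtcttaGGACatgcaatcaaa
*Jak2*, lost, chr19:29311820-29311844 (+), coding, just before the stop codon: atcaaatccgGGACagtatagctgc
*Jak2*, lost, chr19:29312824-29312848 (+), 3′UTR: gctgtgagagAAACgtcctttcctc
GGAC was present in all 5 kept peaks and in 3 of the 5 lost ones. The kept WT peaks were 362 to 1724 bp wide and the lost ones 208 to 635 bp. A wider peak can hold more tetramers by its length alone, so these whole-peak counts do not compare the groups on equal terms. The remaining *Jak2* peak held none of GGAC, AGAC and AAAC in its exonic part. Within 100 bp of the summit on the RNA-sense strand, GGAC was found in 7 of 9 windows of these genes and in 79.4% of 13005 windows of all exonic WT peaks (84.4% of kept and 73.9% of lost peaks). AGAC was found in 7 of the 9 windows against 69.1% of all windows, and AAAC in 9 of the 9 against 51.5%. A tetramer is a match of letters, not a measured methylation site.

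The 2 receptor genes had the peaks with the highest and the third highest −log10 q of the set. On *Lifr*, whose product binds LIF directly, the WT peak (chr15:7190660-7191654) had its summit in the last exon, 118 nt past the stop codon, enriched 8.43-fold over the local background at a −log10 q of 118. The R255K peak (chr15:7190881-7191621) had its summit 109 nt past the stop codon and a fold enrichment of 15.0. On *Il6st*, whose product gp130 carries the signal for the whole cytokine family, the WT peak (chr13:112504015-112505738) was enriched 10.5-fold at a −log10 q of 147, the highest of the set, with its summit 12 nt before the end of the stop codon. The R255K peak (chr13:112504099-112505667) had a fold enrichment of 12.9 and covered 91.0% of the WT peak. Both receptor peaks were thus called in R255K cells at the same place, with fold enrichments 1.78 and 1.24 times those of WT. Other measures went the other way. The −log10 q was lower in R255K cells, at 93.1 for *Lifr* and 131 for *Il6st*. The R255K peaks were also narrower, at 741 against 995 bp for *Lifr* and 1569 against 1724 bp for *Il6st*.

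The kinases differed from each other. On *Jak1*, the WT peak (chr4:101152987-101153348) lay in the 3′UTR, 340 nt past the stop codon, with a fold enrichment of 13.1, and the R255K peak (chr4:101152951-101153362) covered all of it with a fold enrichment of 11.2. *Jak2* had 3 WT peaks and none in R255K cells. Their fold enrichments were 6.98 (chr19:29311014-29311221, touching a coding exon with its summit in the intron beside it), 5.06 (chr19:29311687-29312022, 12 nt past the stop codon) and 11.0 (chr19:29312711-29312981, 967 nt past it). Their −log10 q values were 8.56, 11.9 and 18.5, all under the median of 24.8 for exonic WT peaks. *Jak2* RNA was also the scarcest of the set, with 80 counts in the WT and 50 in the R255K 0 h library.

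*Stat3*, the transcription factor on which the pathway converges, had no peak in either list, although its exons hold 33 GGAC tetramers (3.46 per kb, against a median of 3.86 per kb over genes with a mean 0 h level of at least 1 FPKM). A missing peak was common at this level: of 3207 genes with a WT 0 h level at or above that of *Stat3*, 1521 had no exonic WT peak, or 47.4%.

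Of the inhibitors, *Socs3* kept its broad 3′UTR peak. The WT peak (chr11:117966491-117968127) was enriched 7.86-fold (−log10 q 119), and the R255K peak (chr11:117966974-117967853) covered 53.8% of it with a fold enrichment of 7.39. On *Socs2*, the peak at the stop codon (chr10:95412443-95413118, summit 67 nt past it) had a fold enrichment of 4.14 in WT and 8.16 in R255K cells. The lost *Socs2* peaks were a weak peak in the 3′UTR (chr10:95411611-95411940, fold enrichment 1.67, −log10 q 1.59) and a peak enriched 10.2-fold (chr10:95387865-95388499, −log10 q 28.0) on exons of transcripts annotated as retained intron and nonsense-mediated decay, outside the main coding transcript.

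The kept peaks of these genes had −log10 q values between 30.0 and 147 and the lost peaks between 1.59 and 28.0, so the groups did not overlap in this measure. The same direction held over the series, where 20.3% of exonic WT peaks at or above the median −log10 q were lost and 75.4% of those under it. Of the 10 WT summits, 4 lay within 200 bp of a stop codon, against 29.2% of all exonic WT summits. Among the 5 kept peaks, 3 (*Lifr*, *Il6st* and *Socs2*) had a higher fold enrichment in R255K than in WT cells, against 29.4% of the 7231 kept exonic peaks, whose median ratio was 0.797. Fold enrichment is relative to the local background of each list. Values per replicate were not analysed here, so the spread of these ratios is not known.

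**Figure D1:**
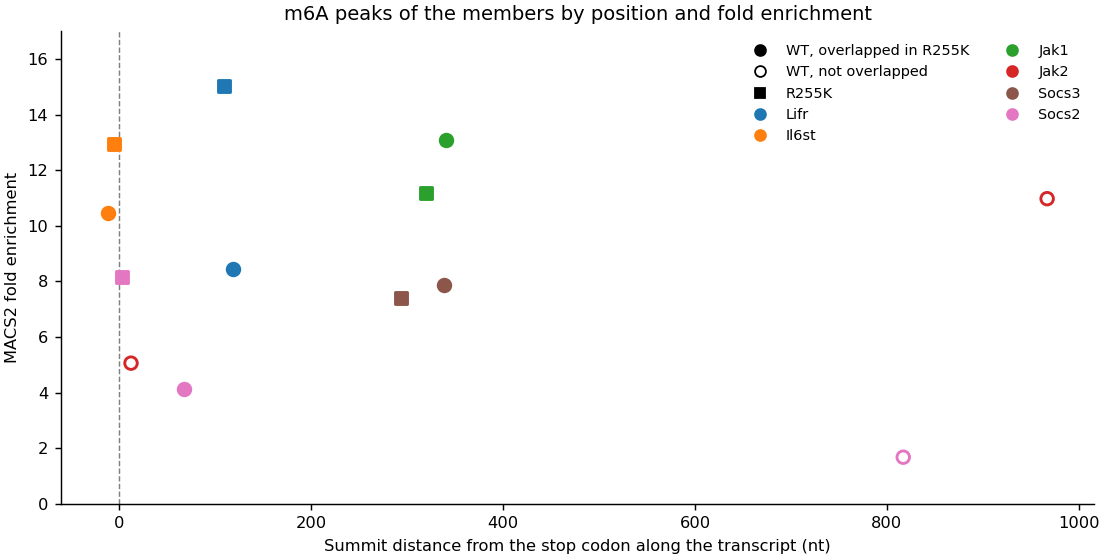
MACS2 fold enrichment of each m6A peak against the distance of its summit from the stop codon along the transcript, in nt, for WT (circles, open where no R255K peak overlaps) and R255K cells (squares), with 1 colour per gene. Both *Jak2* peaks shown are open and the *Lifr* square stands at 15.0, while the *Jak2* peak with its summit in an intron and the *Socs2* peak outside the main transcript are not drawn.

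At 0 h, much of the set stood below its WT level in R255K cells: 4 of the 7 genes were more than 1.5-fold lower and 0 were more than 1.5-fold higher, and the ratio was under 1 for all 7. Of the 18973 genes counted in both libraries, 22.4% were as much lower and 27.8% as much higher. Among genes with a mean 0 h level of at least 1 FPKM, a minimum that *Jak2* misses, the shares were 19.5% and 20.8%, with 4 of 6 genes of the set lower. The median ratio was 0.619 for these 6 genes and 1.04 for all genes at that minimum. In bulk RNA, fewer cells that express a gene and less of its RNA per cell cannot be told apart.

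*Lifr* stood at 15.0, 4.78 and 1.69 FPKM in WT cells and at 5.67, 5.68 and 4.31 FPKM in R255K cells at 0, 4 and 8 h. The R255K level was thus the lower at 0 h (ratio 0.377, interval 0.349 to 0.407), the higher at 4 h (1.19, 1.08 to 1.31) and more so at 8 h (2.55, 2.21 to 2.95). *Il6st* had the same crossing pattern. Its levels were 13.1, 3.11 and 1.17 FPKM in WT and 7.53, 4.37 and 3.64 FPKM in R255K cells, so that the ratio went from 0.576 (0.539 to 0.617) at 0 h to 3.10 (2.64 to 3.67) at 8 h. Both receptor subunits were therefore lower in R255K cells before actinomycin D and higher after 8 h of it.

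The kinases behaved differently from each other with time. *Jak1* rose with time relative to the whole library in both genotypes, from 8.75 to 11.5 and 12.6 FPKM in WT and from 8.16 to 10.5 and 10.4 FPKM in R255K cells. Its 0 h ratio of 0.933 had an interval (0.854 to 1.02) that included 1, and at 8 h it was 0.829 (0.768 to 0.895). *Jak2* was at 0.913, 0.358 and 0.101 FPKM in WT and at 0.635, 0.663 and 0.560 FPKM in R255K cells. These levels rest on 80, 27 and 7 reads in WT and on 50, 62 and 53 reads in R255K cells. At this depth the 0 h difference in *Jak2* could not be detected (0.696, 0.479 to 1.00), and the 8 h ratio of 5.56 was wide (2.52 to 14.5).

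*Stat3* changed little between genotypes, at 20.3, 18.5 and 12.9 FPKM in WT and 18.0, 14.4 and 13.6 FPKM in R255K cells. Its ratios were 0.891 (0.846 to 0.937), 0.782 (0.740 to 0.826) and 1.05 (0.989 to 1.12) at 0, 4 and 8 h. *Socs3*, the most abundant of the set, stood at 82.6 FPKM in WT and 54.6 FPKM in R255K cells before the drug (0.661, 0.629 to 0.695). It then fell in both, to 2.26 and 1.95 FPKM in WT and to 3.72 and 2.19 FPKM in R255K cells. *Socs2* was at 12.5, 4.49 and 2.04 FPKM in WT and 5.38, 4.27 and 2.40 FPKM in R255K cells, lower in R255K at 0 h (0.429, 0.395 to 0.466) and close at 4 h (0.951, 0.855 to 1.06) and 8 h (1.18, 1.01 to 1.38). Between genotypes, *Socs3* was at a ratio of 1.64 (1.28 to 2.12) at 4 h and 1.12 (0.835 to 1.51) at 8 h, so it was the lower in R255K cells before the drug and the higher at 4 h.

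**Figure D2:**
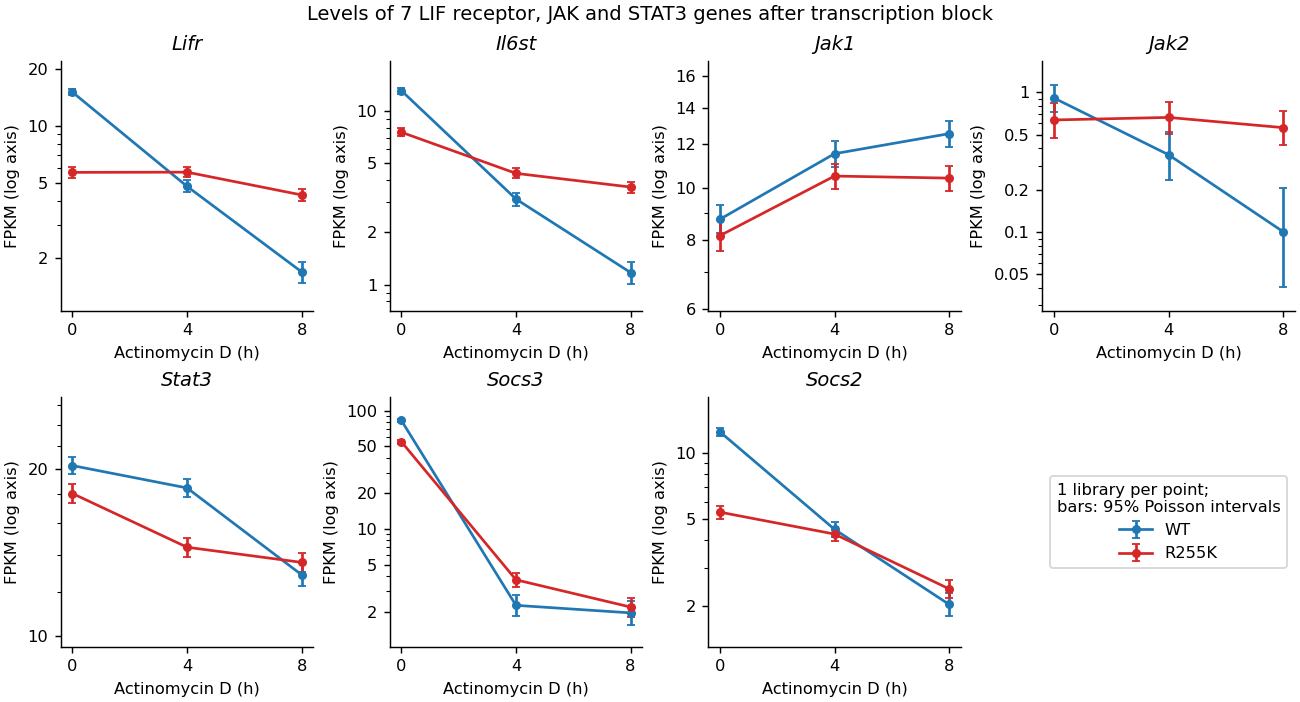
FPKM on a log axis against hours of actinomycin D for each gene in WT (blue) and R255K cells (red), with 1 library per point and 95% Poisson intervals as bars. The WT line crosses below the R255K line for *Lifr*, *Il6st*, *Jak2* and *Socs3* between 0 and 4 h. It does so for *Socs2* and *Stat3* between 4 and 8 h. The WT and R255K lines of *Jak1* and of *Stat3* stay within 1.5-fold of each other at every time.

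In order of WT level at 0 h, the genes ran *Socs3*, *Stat3*, *Lifr*, *Il6st*, *Socs2*, *Jak1* and *Jak2*. In R255K cells the order was *Socs3*, *Stat3*, *Jak1*, *Il6st*, *Lifr*, *Socs2* and *Jak2*, so *Jak1* moved above both receptors and *Socs2*. Neighbours whose counting intervals overlapped were *Il6st* and *Socs2* in WT, and *Jak1* and *Il6st* as well as *Lifr* and *Socs2* in R255K cells. *Stat3* and *Socs3* lie on chromosome 11, where the median log2 ratio of R255K to WT was 0.58 at 0 h over 982 genes, against 0.06 over all genes. Their own log2 ratios at 0 h were -0.17 and -0.60. The part of the chromosome in these values was not tested.

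The ratio of the R255K to the WT 0 h library also varied with base composition, with a trend in the log2 ratio of -0.41 at 41.6% GC and 0.29 at 57.9% GC, which was not seen at 4 h (0.21 and 0.21). Exons of the set ranged from 44.3% GC (*Jak2*) to 59.1% GC (*Socs3*). After correction for the trend the 0 h ratios were 0.447 for *Lifr*, 0.635 for *Il6st*, 0.460 for *Socs2* and 0.580 for *Socs3*, and the same 4 genes stayed past 1.5-fold. Under scaling to *Gapdh* the 4 ratios rose above 1, with *Lifr* at 1.02 and *Il6st* at 1.56, but the median 0 h ratio of all 18973 genes rose with them, from 1.10 to 2.97, and the 4 stayed below it.

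**Figure D3:**
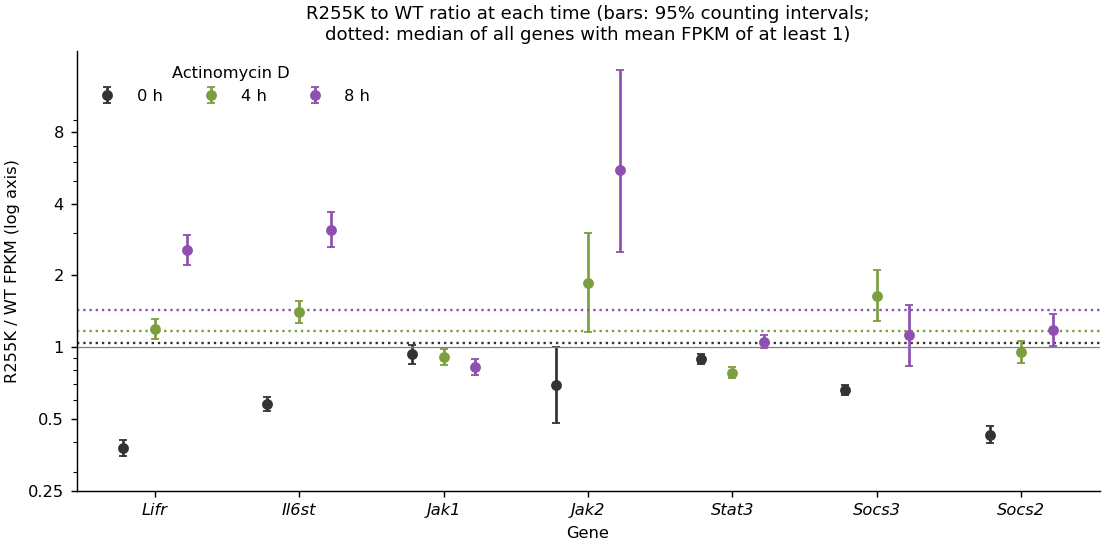
Ratio of R255K to WT FPKM on a log axis for each gene at 0, 4 and 8 h, with 95% counting intervals as bars and the medians of all genes with a mean of at least 1 FPKM (1.04, 1.17 and 1.43) as dotted lines. All 7 ratios at 0 h lie under 1, and those of *Lifr*, *Il6st* and *Jak2* rise past 2 by 8 h.

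With transcription blocked, 5 of the 7 genes in WT cells had under 50% of their 0 h level left at 4 h, and 1 of the 7 in R255K cells. Among genes with a mean of at least 1 FPKM, where the set gives 4 of 6 and 1 of 6, these shares were 28.3% and 13.5%. *Socs3* had 2.74% left in WT (2.22 to 3.34) and 6.81% in R255K cells (5.86 to 7.87). *Il6st* had 23.8% left in WT (21.6 to 26.2) and 58.0% in R255K cells (53.2 to 63.2), and *Lifr* 31.8% (29.3 to 34.5) and 100.3% (91.8 to 109.6). For *Socs2* the values were 35.8% (32.7 to 39.1) and 79.4% (71.8 to 87.8). Levels are relative to the whole library, which itself decays, so a value over 100% such as the 132% of *Jak1* in WT cells is a rise relative to the library, and the number of molecules was not measured.

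Half-lives were computed from the mean of the decay rates over 0 to 4 h and 0 to 8 h. *Socs3* decayed fastest in both genotypes, with a half-life of 1.01 h in WT (0.972 to 1.06) and 1.29 h in R255K cells (1.24 to 1.35), a ratio of 1.27 (1.20 to 1.35). Only 0.518% of the genes that decayed in WT cells had a shorter WT half-life. The receptors decayed at similar rates in WT cells, 2.10 h for *Il6st* (2.00 to 2.21) and 2.48 h for *Lifr* (2.36 to 2.61). In R255K cells *Il6st* had a half-life of 6.11 h (5.45 to 6.95), a ratio of 2.91 (2.55 to 3.31). *Lifr* had one of 41.1 h (21.9 to 346), far beyond the 8 h observed, so its ratio of 16.6 (6.87 to 40.2) says mainly that decay was slight.

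*Socs2* went from 2.86 h in WT (2.70 to 3.05) to 8.73 h in R255K cells (7.21 to 11.1), a ratio of 3.05 (2.45 to 3.80). *Stat3* was the stable decaying member, with 17.4 h in WT (14.3 to 22.1) and 15.2 h in R255K cells (12.7 to 18.9), and the interval of its ratio of 0.873 (0.654 to 1.17) included 1. *Jak1* gave no half-life in either genotype, since its share rose. *Jak2* had a WT half-life of 2.72 h (2.09 to 3.92), and its decay rate in R255K cells of 0.0026 per h had an interval that included 0 (-0.060 to 0.066).

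Of the 5 genes with a half-life in both genotypes, 3 had a ratio over 1.5, against 68.8% of 5504 genes, and the median ratio was 2.91 for the set and 1.98 for all. The count of the set was thus near the background. The ratio of *Lifr*, which GC correction took from 16.6 to 5.78, was higher than that of 97.2% of all genes with one before correction, that of *Socs2* than that of 74.0% and that of *Il6st* than that of 72.2%, while *Socs3* exceeded 21.2% and *Stat3* 9.57%. On the scale of decay rates, the WT rate exceeded the R255K rate by 0.263 per h for *Lifr* (0.243 to 0.283), 0.252 for *Jak2* (0.152 to 0.352), 0.217 for *Il6st* (0.196 to 0.238), 0.163 for *Socs2* (0.140 to 0.185) and 0.147 for *Socs3* (0.111 to 0.183). For *Jak1* and *Stat3* the interval of the difference included 0.

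**Figure D4:**
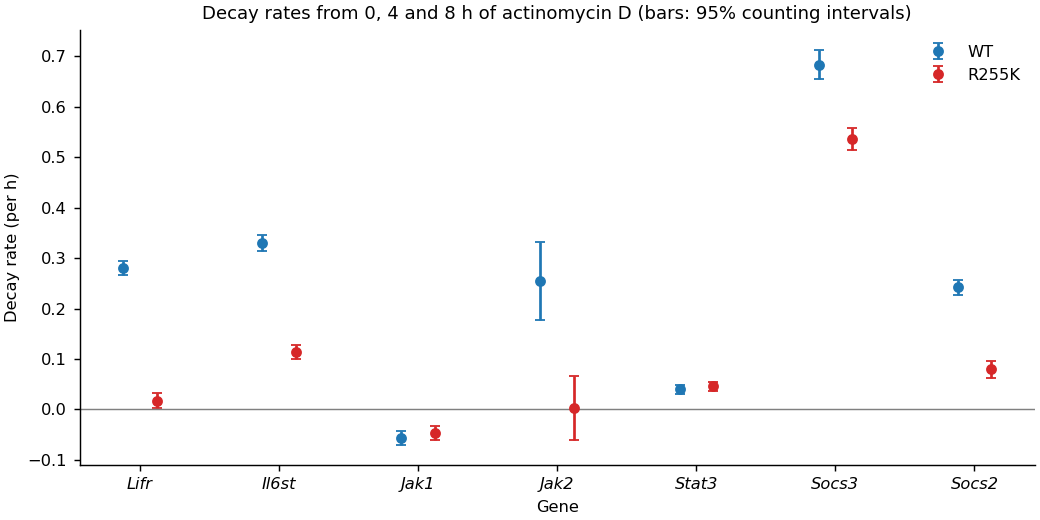
Decay rate per h of each gene in WT (blue) and R255K cells (red), from libraries at 0, 4 and 8 h of actinomycin D, with 95% counting intervals as bars. WT points lie above R255K points for *Lifr*, *Il6st*, *Jak2*, *Socs3* and *Socs2*, and those of *Jak1* lie under 0.

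The half-life ratio and the 0 h ratio share the 0 h libraries, so a low R255K value at 0 h enters both. The step from 4 to 8 h does not use them. Over that step *Lifr* fell to 0.353 of its 4 h level in WT (0.304 to 0.409) and to 0.758 in R255K cells (0.692 to 0.830). *Il6st* fell to 0.378 (0.317 to 0.448) in WT and to 0.834 (0.756 to 0.920) in R255K cells. Both receptors thus still decayed more slowly in R255K cells without the 0 h libraries, with half-life ratios of 3.75 and 5.37. Over all 6388 genes with a half-life in this step, the median ratio was 2.40 and 72.7% were over 1.5, against 3 of 5 in the set. *Socs2* went the same way by less, to 0.454 (0.392 to 0.524) in WT and 0.562 (0.498 to 0.633) in R255K cells, a ratio of 1.37. *Socs3*, already near its lowest level, went to 0.863 (0.633 to 1.17) in WT and to 0.588 (0.465 to 0.742) in R255K cells, the opposite direction, with a ratio of 0.277. *Stat3* fell to 0.698 (0.656 to 0.742) and 0.939 (0.888 to 0.993), a ratio of 5.73. Thus 2 genes changed sides of 1.5 with the step used, *Stat3* upward and *Socs2* downward.

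**Figure D5:**
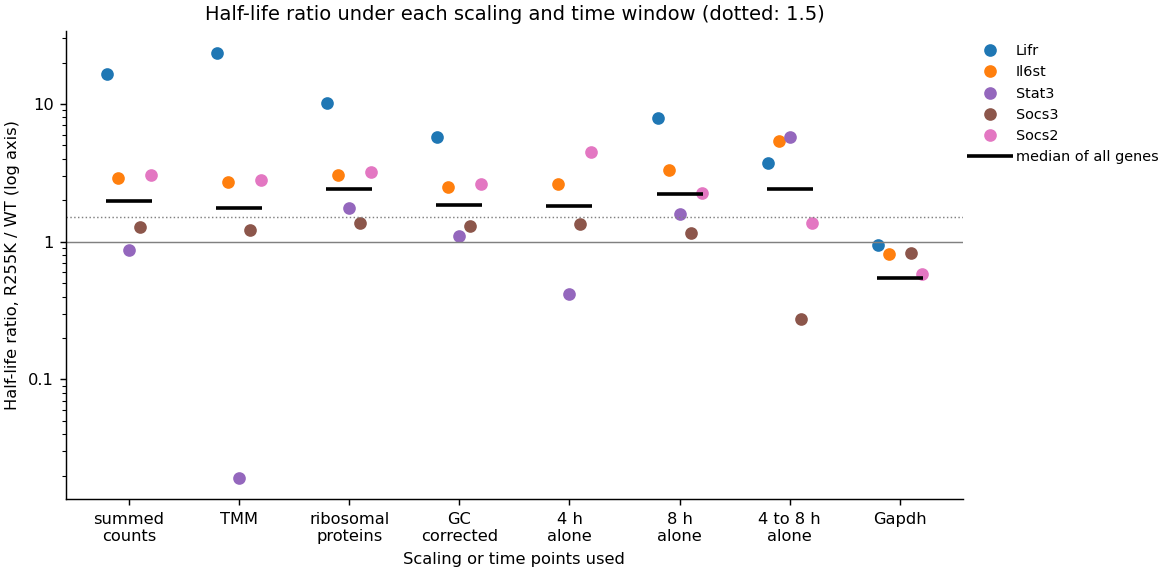
Half-life ratio of R255K to WT on a log axis for 5 genes under each scaling or choice of time points, with the median of all genes as a black line and 1.5 as a dotted line. *Lifr* and *Il6st* lie above 1.5 in every column where they have a value except the one scaled to *Gapdh*, where all members with a value and the median of all genes (0.549) lie under 1.

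At 8 h, 2 of the 6 genes with a mean of at least 1 FPKM were more than 1.5-fold higher in R255K cells (*Lifr* and *Il6st*), against 47.4% of all genes at that minimum. The median ratio at 8 h was 1.15 for these 6 genes and 1.43 for all genes at that minimum.

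Of 45 other genes of the pathway, 33 had a mean 0 h level of at least 1 FPKM. Of the 33, 10 were more than 1.5-fold lower in R255K cells at 0 h and 3 more than 1.5-fold higher, with a median ratio of 0.799, against 19.5% lower and 20.8% higher among all genes at that minimum. Of the 26 with a half-life in both genotypes, 16 had a ratio over 1.5 and 2 under 1/1.5. The median was 1.65, below the 1.98 of all genes, of which 68.8% were over 1.5. The 2 low ratios were those of *Ctf1* (0.0061) and *Stat2* (0.344), and both intervals included 1, so neither sets a direction. Of 45 WT peaks on these genes, 12 had no overlapping R255K peak, against 47.9% of all exonic WT peaks.

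Genes that STAT3 is known to activate in mESCs made up 6 of these 10 lower genes. Of the 9 listed, 6 were more than 1.5-fold lower and 0 higher, with a median ratio of 0.511. Among all genes with a mean of at least 1 FPKM, the shares were 19.5% and 20.8%. *Klf5* had a ratio of 0.187 (0.174 to 0.201), *Tfcp2l1* of 0.282 (0.270 to 0.295) and *Klf4* of 0.408 (0.385 to 0.433), all factors that sustain the naive state. *Gbx2* (0.498), the kinase gene *Pim3* (0.511) and *Bcl3* (0.598) were lower too, while *Junb* (0.881), *Myc* (1.12) and *Pim1* (1.16) lay within 1.5-fold. Of the 9, 4 had a half-life ratio over 1.5, against 68.8% of all genes, and the median of the 9 was 1.37, against 1.98 for all genes. The 4 were *Pim1* at 2.09 (1.90 to 2.31), *Tfcp2l1* at 1.70 (1.53 to 1.90), *Klf4* at 1.59 (1.49 to 1.70) and *Klf5* at 1.59 (1.47 to 1.72). The intervals of *Klf4* and *Klf5* included 1.5.

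The other SOCS family genes, inhibitors like *Socs3* and *Socs2*, had a half-life ratio over 1.5 in 5 of the 5 with a value, against 68.8% of all genes, and 3 of the 5 ratios were below the median of 1.98 of all genes. The ratio was 1.94 for *Socs1*, which had 1 WT read at 8 h, 1.93 for *Socs5*, 4.69 for *Socs6* and 1.58 for *Socs7*, and *Socs4* decayed so little in R255K cells (78.0 h) that its ratio of 32.1 is poorly bounded. None of their 6 WT peaks was lost (0 of 6), against 47.9% of all exonic WT peaks. At 0 h they went both ways, with *Socs1* 3.52 (2.64 to 4.75) and *Socs6* 1.53 (1.36 to 1.73) higher and *Socs4* lower at 0.445 (0.382 to 0.517). The rise of *Socs1* rested on 63 counts in WT and 199 in R255K cells.

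Among other negative regulators, the half-life ratio was over 1.5 for 3 of 4, against 68.8% of all genes. These were the phosphatase gene *Ptpn2* at 3.98 (2.22 to 7.14), *Pias1* at 2.06 and *Pias4* at 1.81. Of the 8 WT peaks on the listed negative regulators, 4 were lost, against 47.9% of all exonic WT peaks. Of the adaptors that lead to ERK and PI3K, 3 of 4 passed 1.5, against the same 68.8%: *Gab1* at 3.25, *Pik3r1* at 2.29 and *Sos1* at 1.97. *Pik3r1* was lower at 0 h, with a ratio of 0.504 (0.405 to 0.623).

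The ligand *Lif*, under the FPKM minimum, was read 37, 5 and 2 times in WT and 98, 23 and 15 times in R255K cells, a 0 h ratio of 2.95 (2.00 to 4.43). *Ctf1*, another ligand of the family, was higher at 0 h at 1.73 (1.26 to 2.37), and its WT level was 97.8% of the 0 h level at 4 h and 104% at 8 h. The receptor gene *Cntfr* was lower at 0.440 (0.399 to 0.485), with a half-life ratio of 2.44 (0.888 to 6.72). *Stat6* was lower at 0.630 (0.566 to 0.701), and *Stat2*, with a WT half-life of 139 h, had a ratio of 0.344 whose interval included 1. The other JAK kinase genes, *Jak3* (0.786) and *Tyk2* (0.985), gave no half-life, like *Jak1*, and carried no WT peak.

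Over the 6 libraries, the genes whose centred log2(FPKM + 1) was most like that of *Socs3* were *Pim3*, *Dusp6* and *Gbx2*, with root mean square differences of 0.148, 0.156 and 0.179. For *Il6st* they were *Zfp266* (0.0838), *Zfp825* (0.0896) and *Arhgap21* (0.0980). For *Lifr* they were *Nsd1* (0.108), *Mtdh* (0.114) and CT030157.2 (0.115). These are likenesses over 6 libraries that share their depth and composition, and no test was made of them.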

How the data were processed

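MeRIP-seq peaks and read counts were used as the authors deposited them. The authors deposited raw counts per gene from HISAT2 alignments to mm10, with exon lengths; the counting tool, its annotation and its strand setting are not given in the sources used here. They deposited MACS2 peaks with a fold enrichment ratio and a −log10 q, called per genotype. The submitters' processing notes also name Bowtie2 2.2.6, Picard 2.16.0 and SAMtools 0.1.09.

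FPKM was computed from the counts, exon length and summed counts of each library. Exons of *Stat3* share 72 bp with antisense *Stat5a*, and those of *Jak1* share 4 bp with *Raver2*, so reads there cannot be assigned. A decay rate was the mean of ln(level at 0 h / level) / time at 4 and 8 h. To enter the half-life counts and ratios, a gene needed a mean 0 h level of at least 1 FPKM and a rate above 0. After the drug a count below 3 was raised to 3 in this step. The half-life and decay rates of *Jak2*, which misses this minimum, are given by name and do not enter the main counts. Ratio intervals were exact conditional binomial (Clopper-Pearson), half-life intervals used the delta method on Poisson counts, and levels used exact Poisson intervals. WT peaks were lost if no R255K peak overlapped by 1 bp. Peaks were placed on GENCODE vM21, and sites were read from the RefSeq GRCm38 assembly, after 22 chromosomes were compared with the files (0 exons and 0 peaks past an end). Motifs were sought on the RNA-sense strand. The half-life estimate alone was tested on simulated counts, with the same scale for every library, so the scaling of libraries was not tested there. Computations used statsmodels 0.14.6, scipy 1.17.1, pandas 2.3.3 and numpy 2.4.6 under Python 3.11.15, figures used matplotlib 3.10.9, and R 4.3.3 was used with edgeR 4.0.16 only for TMM factors. GC trends used a lowess span of 0.3. Alternatives were scaling by TMM, by 76 ribosomal protein genes or by *Gapdh*, GC correction, other time points, other FPKM settings and other peak thresholds.

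The genes and lists were chosen with earlier results of these data known. All 7 genes and their peaks are named. Genes of other lists are named where their mean 0 h level was at least 1 FPKM and a ratio was beyond 1.5-fold, at most 6 per list. Genes named outside this rule (*Lif*, *Jak3*, *Tyk2*, *Bcl3*, *Junb* and *Myc*) were chosen after their values were seen. The likeness is given for the 3 genes with the widest range. No per-sample column was left unmapped.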

Additional observations from a re-analysis of the deposited data

How the results depend on the processing

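Scaling to *Gapdh*, the normalizer in the study's qPCR, changed most. The number of genes with a half-life ratio over 1.5 went from 3 to 0, and that with under 50% left at 4 h in WT cells from 5 to 1. Half-life ratios turned to 0.951 for *Lifr*, 0.811 for *Il6st* and 0.580 for *Socs2*. The 0 h ratios turned to 1.02 for *Lifr*, 1.56 for *Il6st*, 1.78 for *Socs3* and 1.16 for *Socs2*. Those of *Jak1*, *Stat3* and *Jak2* became 2.52, 2.40 and 1.88. The 0 h count beyond 1.5-fold thus went from 4, all lower in R255K cells, to 5, all higher. Among all genes, 87.9% were then beyond 1.5-fold in either direction, and every member stayed below their median 0 h ratio of 2.97. The same scaling moved the median half-life ratio of all genes from 1.98 to 0.549, and *Gapdh* had between 242 and 2357 counts in the WT libraries. The cause was not tested. Apart from it, the half-life count lay between 2 and 4, the 0 h count between 4 and 5, and the lost peaks between 4 and 5. Under TMM the median half-life ratio of all genes was 1.76 and under ribosomal protein scaling 2.42. The *Lifr* ratio ranged from 3.75 (4 to 8 h) to 23.6 (TMM), that of *Il6st* from 2.51 to 5.37, that of *Socs2* from 1.37 to 4.45, that of *Socs3* from 0.277 to 1.36 and that of *Stat3* from 0.019 to 5.73, which sets no direction for *Stat3*. *Jak2*, with 7 counts at 8 h in WT cells, is limited by depth. With 1 library per genotype and time, no replicate could be left out. No paired analysis was possible because the peak lists pool the replicates and the decay libraries have no replicate.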
